A study of Mus musculus with 18 samples.

Results

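The genes described here are 6 killer lectin-like receptor genes of the mouse, Klrg1, Klrd1, Klrk1, Klrc1, Klrb1f and Klrb1c, taken by gene symbol from 26665 genes listed in each library. RNA from sorted spleen T cells of C57BL/6 mice was sequenced in 18 libraries, 3 in each of 6 groups. The groups were Nrp1+ regulatory T cells (tTreg, for thymic), Nrp1-negative regulatory T cells (pTreg, for peripheral) and conventional T cells (Tconv), each from CD28-/- mice (CD28KO) and from mice with intact CD28 (WT). All mice carried Foxp3EGFP, a green reporter of Foxp3, the transcription factor that defines regulatory T cells (Treg), so the WT groups are reporter mice too. The labels give CD28-/- for the mouse and name no cell type to which the loss of CD28 would be confined. The labels give no age and do not tell whether replicates were separate mice. The p-values then reflect only how these libraries vary, which may be technical variation.

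Killer lectin-like receptors are C-type lectin-like surface proteins known first from natural killer (NK) cells and also found on activated T cells. Inhibitory members carry a tyrosine motif that recruits phosphatases, while activating members signal through adaptor chains. Klrg1 encodes an inhibitory receptor for cadherins and marks effector forms of CD8 T cells and Treg. Klrd1 encodes CD94, which pairs with an NKG2 chain such as the inhibitory NKG2A, the product of Klrc1, to bind Qa-1, encoded by H2-T23. Klrk1 encodes NKG2D, an activating receptor for stress-induced ligands that signals through DAP10 (Hcst) and DAP12 (Tyrobp). Klrb1f and Klrb1c encode NKR-P1F, which binds Clec2 family proteins such as Clec2i, and NK1.1, an activating receptor used as a marker of NK and NKT cells in C57BL/6 mice.

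All 6 genes lie on chromosome 6 (GRCm38). Klrg1 spans 122270596 to 122282882 on the minus strand. The other members sit in one stretch of the same chromosome, Klrb1c at 128778485 to 128789215 (minus), Klrb1f at 129045901 to 129057464 (plus), Klrd1 at 129591782 to 129598775 (plus), Klrk1 at 129610323 to 129623864 (minus) and Klrc1 at 129666015 to 129678973 (minus). Close relatives in this stretch can share reads of 50 nt, the read length of these libraries, so each 50 nt window of the members' protein-coding GENCODE mouse release 21 transcripts was searched for in other genes. None of 1365 Klrg1 windows, 1011 Klrd1 windows, 3424 Klrk1 windows or 1699 Klrb1f windows was found in another gene, nor within 2 mismatches of another Klr gene. For Klrc1, 783 of 2030 windows (38.6%) were identical in Klrc2 or Klrc3, and 1422 (70.0%) lay within 2 mismatches of another Klr gene. For Klrb1c, 510 of 3003 windows (17.0%) were identical in Klrb1a, Klrb1b, Klrb1-ps1 or the gene model Gm44511, and 652 (21.7%) lay within 2 mismatches. The levels of Klrc1 and Klrb1c are therefore uncertain where the counting split such reads. The windows below show why the Klrb1f and Klrb1c values can be told apart while those of Klrc1 and Klrc2 cannot in part. Capitals mark the bases at which the pair differs, and each window is written 5′ to 3′ on the gene's own strand.
Klrb1f, chr6:129052504-129052553 (plus), coding part of exon 2: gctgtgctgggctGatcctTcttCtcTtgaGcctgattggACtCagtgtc
Klrb1c, chr6:128785929-128785978 (minus), coding part of exon 2: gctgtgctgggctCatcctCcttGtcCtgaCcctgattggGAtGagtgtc
Klrc1, chr6:129677249-129677298 (minus), coding part of exon 4: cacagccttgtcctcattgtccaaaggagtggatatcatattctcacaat
Klrc2, chr6:129658768-129658817 (minus), coding part of exon 4: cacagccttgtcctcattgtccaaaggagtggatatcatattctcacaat
The first pair is the closest pair of coding windows of Klrb1f and Klrb1c and differs at 8 bases. The second pair has 0 mismatches, so a read from it cannot be assigned to either gene.

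**Figure D1:**
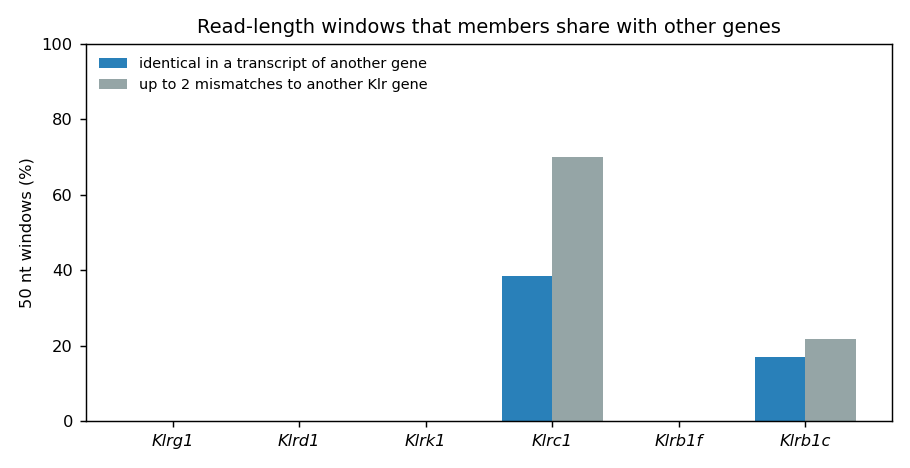
Share of 50 nt transcript windows (%, vertical axis) of each killer lectin-like receptor gene that occur unchanged in another gene (blue) or within 2 mismatches of another Klr gene (grey). The bars of Klrc1 (38.6% and 70.0%) and Klrb1c (17.0% and 21.7%) are above 0, and those of the other 4 genes are at 0.

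Values are FPKM, fragments per kilobase of transcript scaled to the mapped fragments, and differences are of log2(FPKM + 1) ± SE from limma, which understate the change of genes with low FPKM. Library FPKM sums lay between 514726 and 994139, with 10703 to 11741 genes at 1 FPKM or more. The files hold no read counts, which leaves the depth unknown. Cd28, the targeted gene, had 71.2, 76.3 and 80.6 FPKM in CD28KO tTreg, against 57.5, 59.7 and 62.9 FPKM in WT tTreg. Its means were 76.0 ± 19.0 FPKM in CD28KO pTreg and 48.1 ± 14.8 FPKM in WT pTreg, and 88.8 ± 25.8 FPKM in CD28KO Tconv and 61.3 ± 25.2 FPKM in WT Tconv (SD, n = 3 each). The value of the whole gene was thus not lower in libraries labelled CD28KO and does not check those labels, on which each genotype direction below rests. Cd4 lay between 112 and 306 FPKM and Cd3e between 306 and 610 FPKM in the 18 libraries. Ncr1, which defines NK cells, reached at most 0.202 FPKM in any library, Zbtb16, which defines NKT cells, at most 0.411 FPKM, and Cd8a at most 1.82 FPKM. The other CD8 T cell marker, Cd8b1, lay between 5.61 and 12.6 FPKM in the 18 libraries. In a pair of libraries, transcripts of Treg (in a Tconv library) or of Tconv (in a tTreg library) stood above the other replicates. Their source was not tested. CD28KO Tconv replicate 3 had Foxp3 at 21.1 FPKM where replicates 1 and 2 had 0.0670 and 0.205 FPKM. It had Nrp1 at 12.8 FPKM where they had 0.627 and 0.841 FPKM. Summed over 5 Treg marker genes (Foxp3, Ikzf2, Il2ra, Ctla4 and Nrp1), it had 106 FPKM, against 3.79 and 4.83 FPKM in the others of its group. CD28KO tTreg replicate 3 had Pdlim4, a gene near 45 to 49 FPKM on average in Tconv, at 8.14 FPKM, against 0.126 and 0.0332 FPKM in its replicates 1 and 2. Nacc2 and P4ha2, also highest in Tconv, had 1.25 and 0.624 FPKM there, against at most 0.323 and 0.0494 FPKM in those replicates. CD28KO Tconv replicate 3, WT pTreg replicate 1 (6002 genes at 0, the fewest) and WT Tconv replicate 1 (an FPKM sum of 994139, the highest) are called below the 3 libraries that stood apart, and fits without them are given where they change a result. The choice followed no single rule. CD28KO Tconv replicate 1, with 6292 genes at 0, was kept in those fits, as was CD28KO tTreg replicate 3. Apart from it and WT pTreg replicate 1, CD28KO Tconv replicate 1 was below all libraries, which had 8075 or more genes at 0.

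The members occupied different populations. Klrg1 was high in tTreg, Klrd1 in Tconv and Klrb1f in pTreg, while Klrb1c was low in all groups and Klrk1 and Klrc1 stayed under 1 FPKM in all 18 libraries. Of the 6, 4 reached 1 FPKM in at least 3 libraries and were tested among 12265 genes (Klrg1, Klrd1, Klrb1f and Klrb1c). Each of them passed this filter through the groups where it is high, so counts over these 4 are descriptions and lend no support of their own. As these are bulk samples, fewer cells with a transcript and less of it per cell cannot be told apart in any comparison.

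**Figure D2:**
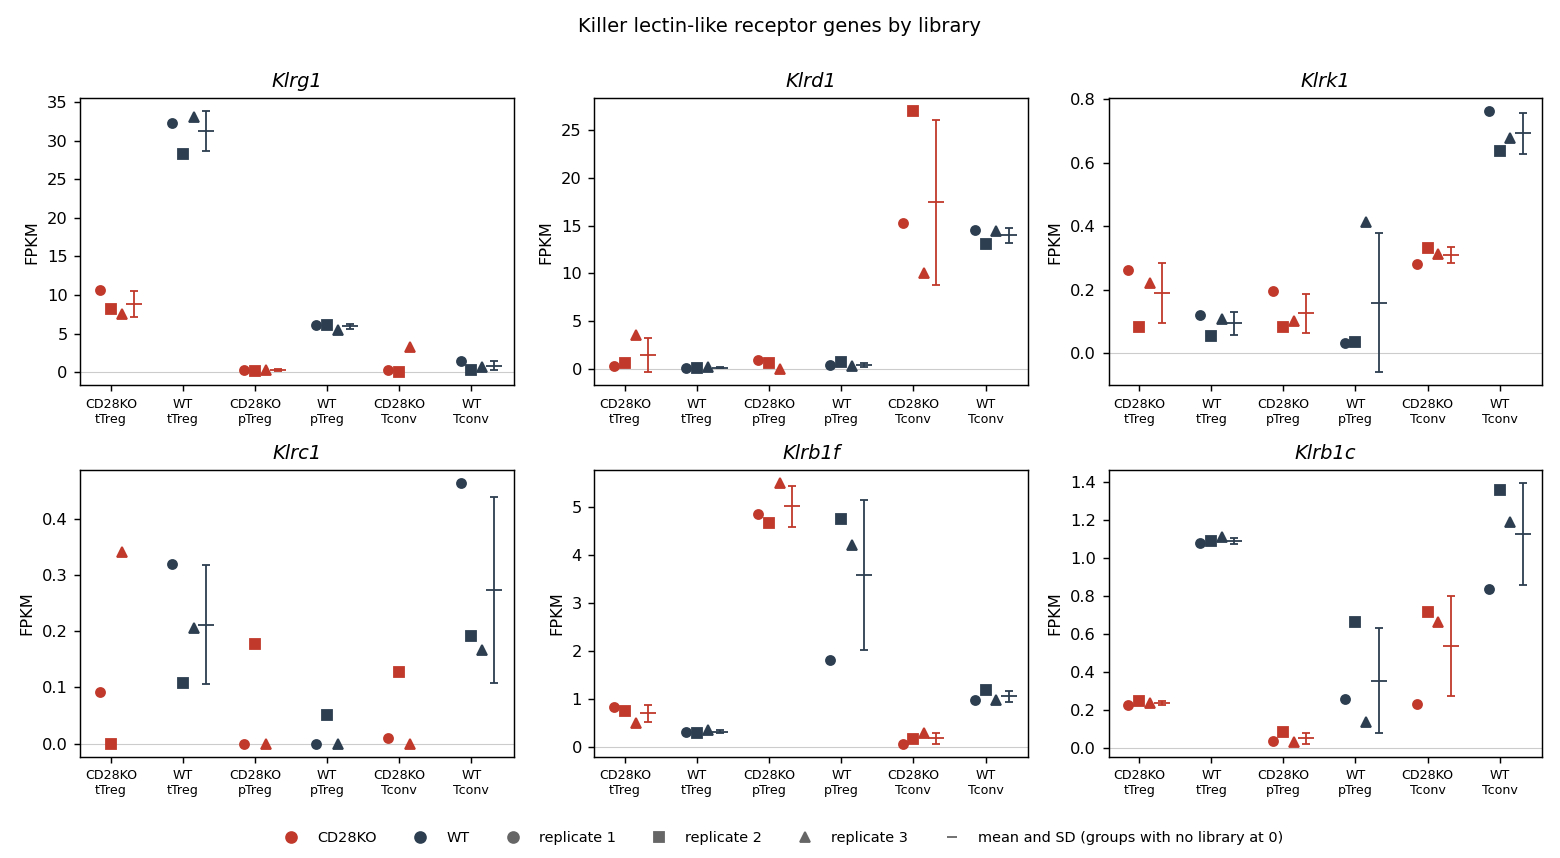
FPKM (linear vertical axis, a scale of its own for each gene) of the 6 genes in 6 groups of 3 libraries, with symbols for replicates and a bar for the mean and SD where no library was at 0. Klrg1 was highest in WT tTreg (28.2 to 33.1 FPKM), Klrd1 in the Tconv groups (10.0 to 27.0 FPKM) and Klrb1f in the pTreg groups (1.82 to 5.50 FPKM).

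Counts of members called are set against the share of all 12265 tested genes called in the same direction. For CD28KO against WT, 0 of the 4 tested members were called in tTreg (0.204% of all tested genes in either direction), 1 fell in pTreg, Klrg1 (0.179%), and 0 were called in Tconv (0.791% in either direction). Unadjusted p-values were under 0.05 for 469, 544 and 1185 genes in these 3 comparisons. For tTreg against pTreg, 1 member was higher (3.13%) and 1 lower (0.946%) in CD28KO mice, and 2 were higher (4.44%) and 1 lower (0.489%) in WT mice. For tTreg against Tconv, 1 was higher (9.63%) and 1 lower (2.47%) in CD28KO mice, and 1 was higher (8.33%) and 2 lower (4.26%) in WT mice. For pTreg against Tconv, 1 was higher (4.8%) and 2 lower (1.05%) in CD28KO mice, and 2 were higher (2.05%) and 2 lower (2.44%) in WT mice. In the tests of a difference between CD28 effects 0 members were called. There 0.0245% of all tested genes were called for pTreg minus tTreg, 0.122% for tTreg minus Tconv and 0.0734% for pTreg minus Tconv, and unadjusted p-values were under 0.05 for 180, 267 and 1073 genes.

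Libraries that do not overlap between groups were common over all tested genes, so the share is given for each direction in which a member showed it. Between genotypes, 2 of the 4 members were higher with no overlap in CD28KO tTreg (2.68% of all tested genes) and 2 lower (15.1%), 2 were lower in CD28KO pTreg (1.86%) and 2 were lower in CD28KO Tconv (18.2%). For tTreg against pTreg, 2 were higher (11.9%) and 1 lower (21.5%) in CD28KO mice, and 2 were higher (12.6%) and 2 lower (2.03%) in WT mice. For tTreg against Tconv, 2 were higher (26.5%) and 1 lower (10.7%) in CD28KO mice, and 1 was higher (14.1%) and 2 lower (14.4%) in WT mice. For pTreg against Tconv, 1 was higher (26.4%) and 2 lower (3.71%) in CD28KO mice, and 2 were higher (3.82%) and 2 lower (9.56%) in WT mice. Where replicate numbers paired the libraries, a block on them left the members' calls as they were and moved the counts of genes called. The blocked count was 154 in place of 97 for CD28KO against WT in Tconv, and 1150 in place of 718 for pTreg against Tconv in CD28KO mice. For tTreg against pTreg it was 801 in place of 500 in CD28KO mice and 1224 in place of 605 in WT mice.

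Klrg1, the cadherin receptor, was a transcript of tTreg, and its FPKM lay lower in CD28KO than in WT libraries of both Treg subsets. In tTreg it had 10.7, 8.21 and 7.53 FPKM in CD28KO libraries, against 32.3, 28.2 and 33.1 FPKM in WT libraries. In pTreg it had 0.295, 0.163 and 0.328 FPKM in CD28KO libraries, against 6.11, 6.12 and 5.52 FPKM in WT libraries. The genotypes did not overlap in either subset, and the CD28KO mean was 0.282 of the WT mean in tTreg and 0.0443 of it in pTreg. Means were 8.81 ± 1.66 FPKM in CD28KO tTreg and 31.2 ± 2.61 FPKM in WT tTreg, and 0.262 ± 0.0872 FPKM in CD28KO pTreg and 5.92 ± 0.343 FPKM in WT pTreg (SD, n = 3 each).

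The Klrg1 difference between genotypes passed the test in pTreg (-2.46 ± 0.37, limma adjusted p = 0.00684) and did not pass in tTreg (-1.73 ± 0.37, adjusted p = 0.0995). These effects were not shown to differ from each other, since the test of their difference, pTreg minus tTreg, gave -0.73 ± 0.53 (adjusted p = 0.863). The tTreg difference passed in 3 of 12 alternatives, the replicate block (given below) and the fits without the sets of libraries that follow. It was -1.73 ± 0.15 without the 3 libraries that stood apart (adjusted p = 0.000497). None of these is a tTreg library, so only the SE changed, and that fit called 130 genes in this comparison in place of 25. With CD28KO tTreg replicate 3 and CD28KO Tconv replicate 3 both left out, the Klrg1 difference was -1.63 ± 0.23 (adjusted p = 0.00742). The pTreg call was lost without CD28KO pTreg replicate 2 (-2.40, adjusted p = 0.0672), without WT pTreg replicate 2 (-2.43, adjusted p = 0.0540) and with a pseudocount of 0.1 (-4.08, adjusted p = 0.0936).

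In Tconv, Klrg1 had 0.241, 0 and 3.22 FPKM in CD28KO libraries, against 1.43, 0.303 and 0.711 FPKM in WT libraries. The groups overlapped, and the high CD28KO value was that of replicate 3, the library that also carried Foxp3 at 21.1 FPKM. The difference was -0.02 ± 0.37 (adjusted p = 1.0) with that library and -0.66 ± 0.23 (adjusted p = 0.337) without it. The part of the Treg transcripts in this value was not tested. The CD28 effect in pTreg minus that in Tconv was -2.44 ± 0.53 (adjusted p = 0.156). It passed in 3 of 18 alternatives, among them the fit without that single library (-1.80 ± 0.31, adjusted p = 0.0250).

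Between populations, Klrg1 was higher in tTreg than in pTreg by 2.95 ± 0.37 in CD28KO mice (adjusted p = 0.000138) and by 2.22 ± 0.37 in WT mice (adjusted p = 0.00162). Relative to Tconv, it was higher in tTreg by 2.49 ± 0.37 in CD28KO mice (adjusted p = 0.000166) and by 4.19 ± 0.37 in WT mice (adjusted p = 2.17e-06). In pTreg relative to Tconv it was higher in WT mice by 1.98 ± 0.37 (adjusted p = 0.00397), whereas the CD28KO difference was -0.46 ± 0.37 (adjusted p = 0.645). With a pseudocount of 0.1 the WT differences of tTreg from pTreg (2.38, adjusted p = 0.162) and of pTreg from Tconv (2.92, adjusted p = 0.0604) did not pass. In order of level, WT tTreg stood first, followed by CD28KO tTreg and then WT pTreg with no overlap between neighbours, and CD28KO Tconv, WT Tconv and CD28KO pTreg followed with overlapping libraries.

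Klrd1, which encodes CD94, was a transcript of Tconv in both genotypes. It had 15.3, 27.0 and 10.0 FPKM in CD28KO Tconv, against 14.5, 13.1 and 14.4 FPKM in WT Tconv. It had 0.291, 0.574 and 3.56 FPKM in CD28KO tTreg, against 0.0979, 0.0892 and 0.203 FPKM in WT tTreg. In pTreg it had 0.893, 0.589 and 0 FPKM in CD28KO libraries, against 0.381, 0.677 and 0.256 FPKM in WT libraries. Each Tconv library was above each Treg library. The CD28KO Tconv libraries spread widely, with 15.3 and 27.0 FPKM above each WT Tconv value and 10.0 FPKM below each. The low value was that of CD28KO Tconv replicate 3, the library that also carried Foxp3 at 21.1 FPKM. The part of the Treg transcripts in this value was not tested. Cd8b1, a CD8 chain gene, was lower in CD28KO tTreg than in CD28KO Tconv (-0.79 ± 0.16, limma adjusted p = 0.00193), and its other differences between groups did not pass. It averaged 6.07 ± 0.134 FPKM in CD28KO tTreg, 6.28 ± 0.737 FPKM in WT tTreg, 7.61 ± 1.27 FPKM in CD28KO pTreg, 7.09 ± 0.808 FPKM in WT pTreg, 11.3 ± 1.20 FPKM in CD28KO Tconv and 8.46 ± 1.14 FPKM in WT Tconv (SD, n = 3 each). Cd8a was at 0.219 to 0.359 FPKM in CD28KO Tconv and at 0.108 to 0.442 FPKM in WT Tconv, and the part of CD8 T cells in the Klrd1 level was not tested beyond these values.

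Klrd1 was lower in tTreg than in Tconv, with a difference of -3.03 ± 0.39 in CD28KO mice (limma adjusted p = 4.4e-05) and -3.73 ± 0.39 in WT mice (adjusted p = 6.5e-06). It was lower in pTreg than in Tconv with a difference of -3.57 ± 0.39 in CD28KO mice (adjusted p = 3.77e-05) and -3.39 ± 0.39 in WT mice (adjusted p = 6.17e-05). These 4 calls held under each of the alternatives run. The difference between genotypes was 0.19 ± 0.39 in Tconv (adjusted p = 0.940), 0.02 ± 0.39 in pTreg (adjusted p = 0.988) and 0.90 ± 0.39 in tTreg (adjusted p = 1). In tTreg each CD28KO library was above each WT library. The highest CD28KO value there was 3.56 FPKM in replicate 3, the library with Pdlim4 at 8.14 FPKM, and the difference was 0.34 ± 0.32 without it. Pdlim4, Nacc2 and P4ha2 were also the 3 genes that ran most like Klrd1 over the 18 libraries (r = 0.979 to 0.984). They are thus not independent marks of that library. The part of the Tconv transcripts in this value was not tested.

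Klrb1f, which encodes NKR-P1F, was a transcript of pTreg. It had 4.86, 4.67 and 5.50 FPKM in CD28KO pTreg, against 1.82, 4.75 and 4.21 FPKM in WT pTreg. It had 0.846, 0.763 and 0.517 FPKM in CD28KO tTreg, against 0.330, 0.294 and 0.355 FPKM in WT tTreg. In Tconv it had 0.0777, 0.183 and 0.306 FPKM in CD28KO libraries, against 0.990, 1.20 and 0.989 FPKM in WT libraries. Each pTreg library was above each tTreg and Tconv library, and the lowest pTreg value was that of WT replicate 1, a library that stood apart.

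Klrb1f was lower in tTreg than in pTreg in both genotypes, with differences of -1.82 ± 0.20 in CD28KO mice (limma adjusted p = 5.15e-05) and -1.73 ± 0.20 in WT mice (adjusted p = 0.0001). It was higher in pTreg than in Tconv by 2.34 ± 0.20 in CD28KO mice (adjusted p = 5.25e-06) and by 1.09 ± 0.20 in WT mice (adjusted p = 0.00317). These 4 calls held under each of the alternatives run. In tTreg against Tconv the difference was 0.52 ± 0.20 in CD28KO mice (adjusted p = 0.125) and -0.63 ± 0.20 in WT mice (adjusted p = 0.0487). The CD28KO difference passed in 3 of 12 alternatives, with adjusted p up to 0.380 in the others. It passed with a pseudocount of 0.1 (1.54 ± 0.35, adjusted p = 0.00621), after quantile normalization (0.42 ± 0.11, adjusted p = 0.0148) and in the fit that left out the 3 libraries standing apart (0.59 ± 0.12, adjusted p = 0.00312). The WT call was lost without any one of the 6 libraries compared (adjusted p between 0.0871 and 0.136), without the filter (0.0780) and without CD28KO tTreg replicate 3 and CD28KO Tconv replicate 3 together (0.0702).

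Between genotypes, the Klrb1f libraries lay in opposite directions in tTreg and in Tconv, though neither difference passed in the main fit. Over all tested genes, 2.68% lay higher with no overlap in CD28KO tTreg and 18.2% lower in CD28KO Tconv. The CD28KO libraries were all above the WT ones in tTreg (0.36 ± 0.20, adjusted p = 1) and all below them in Tconv (-0.80 ± 0.20, limma adjusted p = 0.104), where the CD28KO mean was 0.178 of the WT mean. In pTreg the genotypes overlapped (0.45 ± 0.20, adjusted p = 0.770). The Tconv difference passed in 3 of 12 alternatives, with adjusted p up to 0.520 in the others. It passed with a pseudocount of 0.1 (-2.08 ± 0.35, adjusted p = 0.00654), after quantile normalization (-0.82 ± 0.11, adjusted p = 0.00186) and in the fit that left out the 3 libraries standing apart (-0.89 ± 0.13, adjusted p = 0.00267). The CD28 effect in pTreg minus that in Tconv was 1.25 ± 0.28 (adjusted p = 0.184), and in tTreg minus that in Tconv 1.16 ± 0.28 (adjusted p = 0.309). Each passed in 2 of 18 alternatives, with adjusted p up to 0.549 and 0.828 in the others. Without the 3 libraries the effects were 1.02 ± 0.18 (adjusted p = 0.0414) and 1.25 ± 0.17 (adjusted p = 0.00556).

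Klrb1c, which encodes NK1.1, was low throughout and never above 1.36 FPKM. It had 0.223, 0.245 and 0.234 FPKM in CD28KO tTreg, against 1.08, 1.09 and 1.11 FPKM in WT tTreg. In pTreg it had 0.0339, 0.0799 and 0.0294 FPKM in CD28KO libraries, against 0.258, 0.663 and 0.135 FPKM in WT libraries. In Tconv it had 0.232, 0.713 and 0.659 FPKM in CD28KO libraries, against 0.833, 1.36 and 1.19 FPKM in WT libraries. The CD28KO libraries were below the WT ones with no overlap in each population.

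None of the Klrb1c differences between genotypes passed the test. They were -0.76 ± 0.15 in tTreg (limma adjusted p = 0.0591), -0.35 ± 0.15 in pTreg (adjusted p = 0.770) and -0.48 ± 0.15 in Tconv (adjusted p = 0.290). The tTreg difference passed in 3 of 12 alternatives. It passed without the filter on low values (adjusted p = 0.0321) and in the fit that left out the 3 libraries standing apart (adjusted p = 0.0332). The other was the replicate block, given below, though by the rule used replicate numbers did not pair the tTreg genotypes. Libraries of equal number correlated there at 0.128, 0.0408 and 0.175, and the rule asked for each above 0.1. Between populations, Klrb1c was higher in tTreg than in pTreg of WT mice by 0.65 ± 0.15 (adjusted p = 0.0177). It was lower in pTreg than in Tconv, with -0.54 ± 0.15 in CD28KO mice (adjusted p = 0.0495) and -0.66 ± 0.15 in WT mice (adjusted p = 0.0165). The first of these calls was lost without WT tTreg replicate 2 or 3 or WT pTreg replicate 1 or 3 (adjusted p at most 0.0921) and with a pseudocount of 0.1 (0.0616). The WT pTreg call against Tconv was lost without WT pTreg replicate 3 or WT Tconv replicate 2 or 3 (adjusted p at most 0.0881) and with a pseudocount of 0.1 (0.0506). The CD28KO pTreg call against Tconv was lost without any of the libraries compared except CD28KO Tconv replicate 1 (adjusted p at most 0.213). It was also lost without the filter (0.0565), without the 3 libraries that stood apart (0.0698), and without CD28KO tTreg replicate 3 and CD28KO Tconv replicate 3 together (0.209). The level of Klrb1c also carries the shared windows described above.

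**Figure D3:**
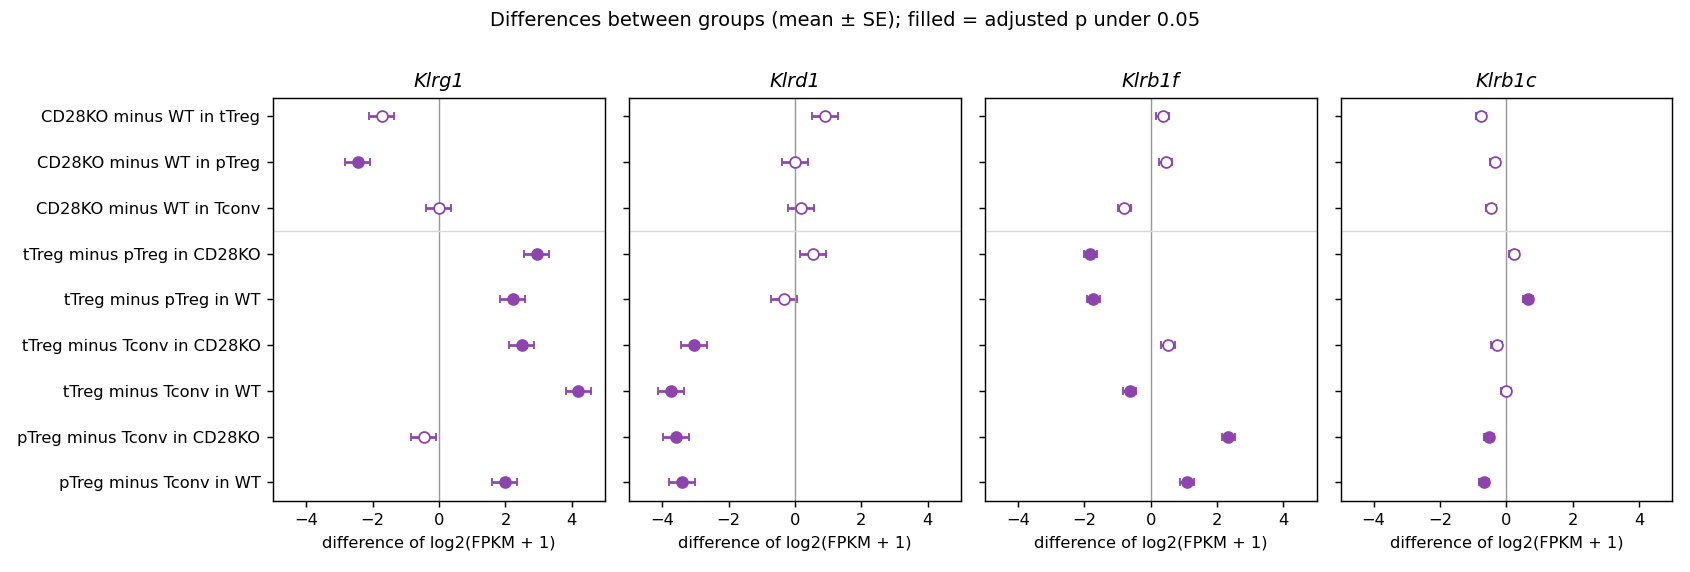
Differences of log2(FPKM + 1) (horizontal axis) with SE bars for the 4 tested genes in 9 comparisons of 3 libraries against 3, with filled points at an adjusted p under 0.05. Klrg1 points lie right of 0 for tTreg against pTreg (2.95 and 2.22), Klrd1 points left of 0 for both Treg subsets against Tconv (-3.03 to -3.73), and Klrb1f points right of 0 for pTreg against Tconv (2.34 and 1.09).

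Klrk1, the NKG2D gene, was highest on average in Tconv, though under 1 FPKM in each library. It had 0.282, 0.331 and 0.311 FPKM in CD28KO Tconv, against 0.762, 0.638 and 0.676 FPKM in WT Tconv. In tTreg it had 0.262, 0.0821 and 0.222 FPKM in CD28KO libraries, against 0.120, 0.0530 and 0.108 FPKM in WT libraries. In pTreg it had 0.195, 0.0808 and 0.101 FPKM in CD28KO libraries, against 0.0318, 0.0336 and 0.412 FPKM in WT libraries. The genotypes did not overlap in Tconv, and they overlapped in both Treg subsets. Klrk1 entered a test only without the filter on low values. There it was lower in WT tTreg than in WT Tconv (-0.63 ± 0.10, limma adjusted p = 0.000555) and lower in WT pTreg than in WT Tconv (-0.56 ± 0.10, adjusted p = 0.00502). The genotype difference in Tconv did not pass (-0.37 ± 0.10, adjusted p = 0.182), nor did tTreg or pTreg against Tconv in CD28KO mice (adjusted p = 0.586 and 0.379).

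Klrc1, the NKG2A gene, was near 0 in most libraries. It had 0.00979, 0.127 and 0 FPKM in CD28KO Tconv, against 0.463, 0.191 and 0.166 FPKM in WT Tconv, with no overlap. In tTreg it had 0.0921, 0 and 0.340 FPKM in CD28KO libraries, against 0.319, 0.108 and 0.206 FPKM in WT libraries. In pTreg it had 0, 0.177 and 0 FPKM in CD28KO libraries, against 0, 0.0520 and 0 FPKM in WT libraries. No Klrc1 comparison passed without the filter (lowest limma adjusted p = 0.209, for WT pTreg minus WT Tconv). Klrd1 was thus above 10 FPKM in Tconv libraries in which the gene for its inhibitory NKG2 partner stayed at or under 0.463 FPKM. Of 19 other Klr genes listed in the files, none reached the filter, and in 18 of them each library was under 0.5 FPKM. The highest value was that of Klre1, which had 0.117, 0.0671 and 0.116 FPKM in CD28KO Tconv, against 1.01, 0.468 and 0.519 FPKM in WT Tconv.

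Of the 25 Klr genes in the files, 6 lay lower in CD28KO Tconv than in WT Tconv with no overlap (Klrk1, Klrc1, Klrb1f, Klrb1c, Klre1 and Klra9), 1 lay higher (Klra3) and 18 overlapped, Klrg1 and Klrd1 among them. Among all tested genes, 18.2% lay lower there with no overlap. That share does not cover genes under the filter, and none was computed for the higher direction. No member passed the test there, and of the 6 lower genes only Klrb1f and Klrb1c were tested. The summed level of 10 NK marker genes was 8.70 to 13.7 FPKM in CD28KO Tconv and 19.4 to 24.3 FPKM in WT Tconv. That sum is carried by few genes, with Prf1, the perforin gene, at 7.36 ± 1.65 FPKM in CD28KO Tconv and 10.5 ± 0.452 FPKM in WT Tconv (adjusted p = 0.547). Of the 4 of these genes that were tested, 1 fell, Gzma, a granule protease gene (-1.72 ± 0.22, limma adjusted p = 0.000425), which averaged 0.207 FPKM in CD28KO Tconv and 3.03 FPKM in WT Tconv. Ncr1 was at 0.0665 FPKM or less in CD28KO Tconv and at 0.0757 FPKM or less in WT Tconv. The sum of 5 NKT marker genes was 7.04, 9.70 and 63.0 FPKM in CD28KO Tconv and 46.6 to 50.9 FPKM in WT Tconv. That sum is carried largely by Il2rb, at 5.11, 6.86 and 59.5 FPKM in CD28KO Tconv and 36.4 to 39.9 FPKM in WT Tconv. In both, only the highest CD28KO library was above the WT ones, and the others were below each of them. Il2rb is also a transcript of Treg, with means of 245 FPKM in CD28KO tTreg and 309 FPKM in WT tTreg. Of the 3 NKT marker genes tested (Il2rb, Cxcr6 and Tbx21), 2 fell. Cxcr6 averaged 1.84 FPKM in CD28KO Tconv and 5.39 FPKM in WT Tconv, and Tbx21 0.697 and 5.88 FPKM. Both were also present in Treg, with means in WT tTreg of 5.12 FPKM for Cxcr6 and 3.41 FPKM for Tbx21, so they do not mark NKT cells alone here. The share of all tested genes called in this comparison was 0.791% in either direction. Zbtb16 was at 0.173 to 0.263 FPKM in CD28KO Tconv and at 0.124 to 0.411 FPKM in WT Tconv. The part of these cells in the Tconv values of the receptor genes was not tested beyond these levels.

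Of 21 genes of the receptors' adaptors and signalling chains, 18 were tested. Syk, Plcg2 and Sh2d1b1 did not reach the filter, with Sh2d1b1 at 0 in all CD28KO pTreg and WT Tconv libraries. Of the 18, 0 were called for CD28KO against WT in any population, with medians of -0.04 in tTreg, 0.22 in pTreg and -0.31 in Tconv beside -0.05, 0.19 and -0.16 over all tested genes. Hcst, which encodes the NKG2D adaptor DAP10, averaged 128 ± 10.7 FPKM in CD28KO tTreg and 154 ± 10.3 FPKM in WT tTreg. It averaged 181 ± 14.4 FPKM in CD28KO pTreg and 171 ± 40.9 FPKM in WT pTreg. In Tconv it averaged 154 ± 11.7 FPKM in CD28KO libraries and 209 ± 50.1 FPKM in WT libraries (SD, n = 3 each). WT Tconv replicate 1, a library that stood apart, had 266 FPKM. Tyrobp, which encodes DAP12, averaged 1.83 ± 0.507 FPKM in CD28KO tTreg and 2.64 ± 0.791 FPKM in WT tTreg. It averaged 2.85 ± 1.59 FPKM in CD28KO pTreg and 1.91 ± 0.520 FPKM in WT pTreg. In Tconv it averaged 1.22 ± 0.788 FPKM in CD28KO libraries and 2.63 ± 1.15 FPKM in WT libraries, and the genotypes overlapped in each population. In WT tTreg against WT Tconv, Sh2d1a, which encodes the adaptor SAP, rose (0.78, limma adjusted p = 0.0098). Lat, a scaffold of T cell receptor signalling (-0.75, adjusted p = 0.0150), and Cd247, the CD3 zeta chain (-0.74, adjusted p = 0.00721), fell there. Cd247 also fell in WT pTreg (-0.66, adjusted p = 0.0379), with Ptpn6, which encodes the phosphatase SHP-1 (-0.69, adjusted p = 0.0393), and in CD28KO tTreg (-0.65, adjusted p = 0.0173), each against Tconv of the same genotype. Lat was lower in CD28KO tTreg than in CD28KO pTreg (-0.75 ± 0.19, adjusted p = 0.0354). Over all tested genes, 8.33% were called higher and 4.26% lower in WT tTreg against WT Tconv. The shares called lower were 2.44% for WT pTreg and 2.47% for CD28KO tTreg, each against Tconv, and 0.946% for CD28KO tTreg against CD28KO pTreg.

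Among ligand genes, 14 of 19 listed were in the files and 6 were tested, with 1 call in the 12 comparisons. In the comparison that held it, pTreg against Tconv in CD28KO mice, 4.8% of all tested genes were called higher. Clec2d, which encodes the NKR-P1B ligand Clr-b, was higher in pTreg than in Tconv of CD28KO mice by 1.05 ± 0.28 (limma adjusted p = 0.0380), at 141 ± 15.8 FPKM in CD28KO pTreg and 67.9 ± 10.5 FPKM in CD28KO Tconv. H2-T23, the Qa-1 gene, averaged 248 ± 3.25 FPKM in CD28KO tTreg and 292 ± 20.3 FPKM in WT tTreg, 289 ± 13.8 FPKM in CD28KO pTreg and 311 ± 89.6 FPKM in WT pTreg, and 205 ± 3.76 FPKM in CD28KO Tconv and 307 ± 60.1 FPKM in WT Tconv (SD, n = 3 each). The genotype difference of H2-T23 in Tconv was -0.56 ± 0.19 (adjusted p = 0.339). Clec2i, which encodes the NKR-P1F ligand Clr-g, averaged between 29.7 and 43.6 FPKM in the 6 groups. Cdh1, which encodes the KLRG1 ligand E-cadherin, was at 0.0784 FPKM or less in each library.

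**Figure D4:**
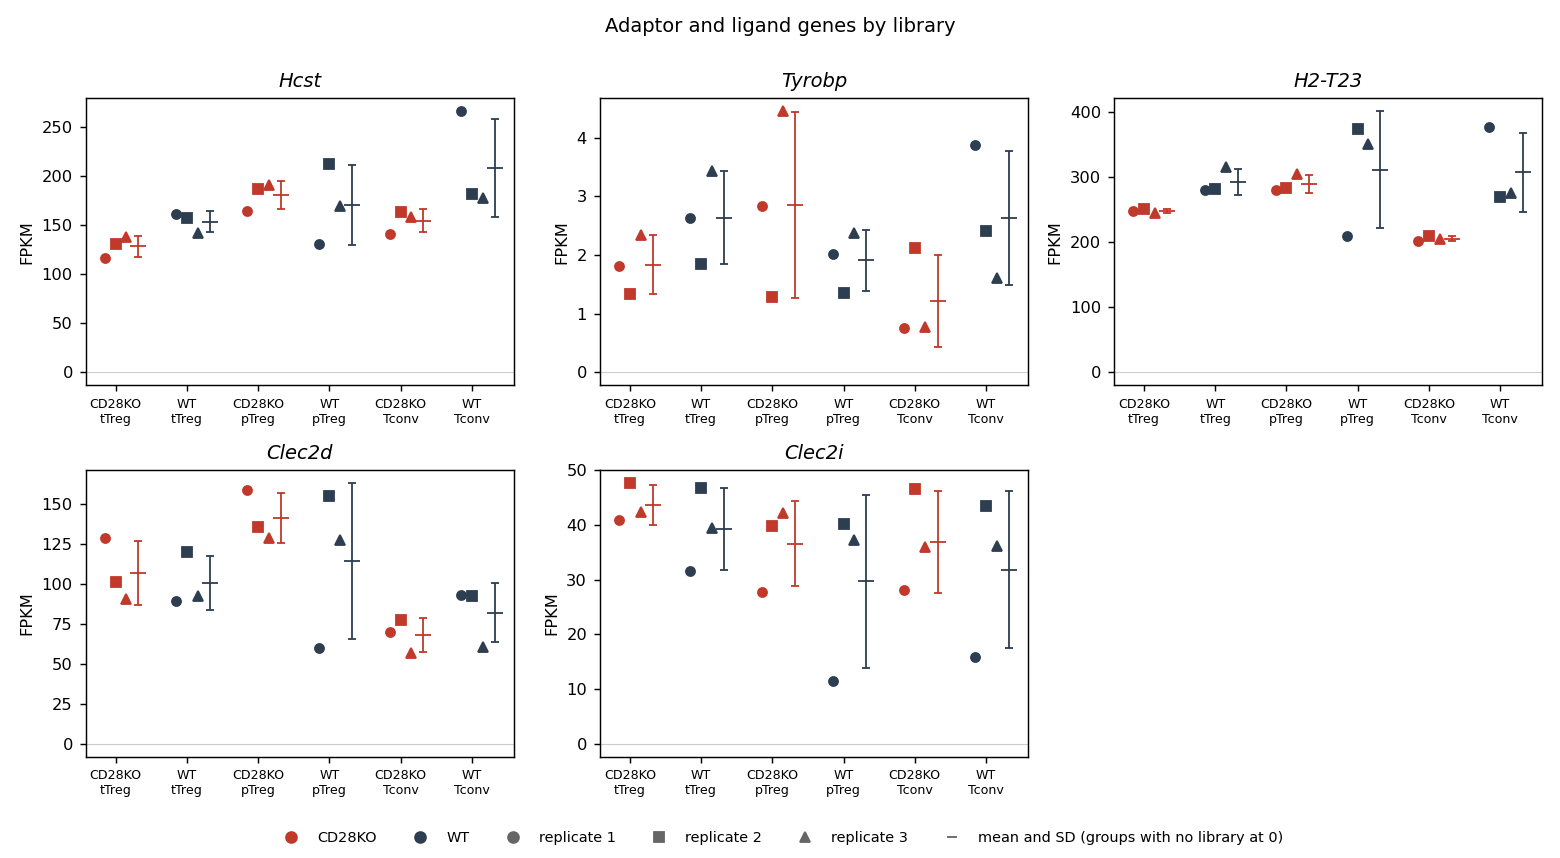
FPKM (linear vertical axis, a scale of its own for each gene) of adaptor genes (Hcst, Tyrobp) and ligand genes (H2-T23, Clec2d, Clec2i) in 6 groups of 3 libraries, with symbols for replicates and a bar for the mean and SD. Clec2d averaged 141 FPKM in CD28KO pTreg and 67.9 FPKM in CD28KO Tconv, and Hcst was above 100 FPKM in all 18 libraries.

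The tested genes whose log2(FPKM + 1) ran most like each tested member over the 18 libraries were ranked by Pearson's r, a description over libraries that share groups, with no test. For Klrg1 they were Slc7a10, an amino acid transporter gene (r = 0.972), Il1r2, the decoy receptor for interleukin 1 (r = 0.972), and Mapk8ip1, a scaffold of JNK signalling (r = 0.967). Slc7a10 averaged 2.69 FPKM in CD28KO tTreg and 7.76 FPKM in WT tTreg, and 0.00843 FPKM in CD28KO pTreg and 1.62 FPKM in WT pTreg. For Klrd1 they were Nacc2 (r = 0.984), P4ha2, a collagen prolyl hydroxylase gene (r = 0.983), and Pdlim4 (r = 0.979), which averaged 45.3 FPKM in CD28KO Tconv and 48.7 FPKM in WT Tconv. For Klrb1f they were Cited4 (r = 0.947), Plekhf1 (r = 0.944) and Fam20a (r = 0.932), and Cited4 averaged 6.49 FPKM in CD28KO pTreg and 4.09 FPKM in WT pTreg and under 1 FPKM in the other groups. For Klrb1c the likeness was weaker, with Sord, the sorbitol dehydrogenase gene (r = 0.852), Rgs12 (r = 0.841) and Fam174b (r = 0.826). Between members, r ran from -0.60 for Klrd1 and Klrg1 to 0.74 for Klrd1 and Klrk1.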

How the data were processed

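RNA was measured in 18 libraries made from total RNA with NEBNext Ultra and read as single 50 nt reads, per the labels' protocols. The deposited values are FPKM, 1 per gene symbol and library; as tools behind them, per the submitters' processing notes, stand TopHat2 2.0.11, Trimmomatic 1 and Cufflinks, with GRCm38 as the build. The unit was inferred from Cufflinks and from fractional values that are never negative. The annotation and the strand setting are not given in the sources used here, and the depth per library is unknown.

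From the deposited FPKM, log2(FPKM + 1) was fitted with limma 3.58.1 (R 4.3.3), with 1 mean per group, all 18 libraries, a variance trend and 12 residual degrees of freedom. Genes at 1 FPKM or more in at least 3 libraries were tested (12265), two-sided, and called at a Benjamini-Hochberg adjusted p under 0.05 over all of them. There were 9 comparisons of groups and 3 tests of the difference between CD28 effects. The members, marker lists, partner lists and ligand lists were chosen with earlier results of these data known. Named genes were the members, called genes of the partner and ligand lists, and the 3 genes most like each tested member. Klre1, H2-T23, Hcst, Tyrobp, Clec2i, Cdh1, Pdlim4 and the cell type markers were added for their roles, or after their values were seen. GENCODE mouse release 21 (GRCm38) gave the sequences and positions.

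Replicate numbers were taken to pair libraries where, after group means were removed, libraries of equal number correlated above 0.1 for each of the 3 numbers. This held in 6 of 9 comparisons, all but CD28KO against WT in tTreg and in pTreg, and pTreg against Tconv in WT mice. Alternatives were quantile normalization, a pseudocount of 0.1, testing without the filter, a replicate block, leaving out the 3 libraries that stood apart, and leaving out each library compared. Leaving out CD28KO tTreg replicate 3 and CD28KO Tconv replicate 3 together was chosen after seeing the data. The code was tested on simulated data.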

Additional observations from a re-analysis of the deposited data

Results flagged for a closer look

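Klrb1f drew attention because its CD28KO libraries were all above the WT libraries in tTreg and all below them in Tconv. Neither genotype difference passed in the main fit. Over all tested genes, 2.68% lay higher with no overlap in CD28KO tTreg and 18.2% lower in CD28KO Tconv. The CD28 effect in tTreg minus that in Tconv was 1.16 ± 0.28 on the log2(FPKM + 1) scale and did not pass the limma test of that difference (adjusted p = 0.309).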

How the results depend on the processing

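Members called, of 4 tested (of 6 without the filter), changed by over 1.5 times as follows. With a pseudocount of 0.1 the count was 0 in place of 1 for CD28KO against WT in pTreg, 1 in place of 0 in Tconv, 1 in place of 3 for tTreg against pTreg in WT mice and 2 in place of 4 for pTreg against Tconv in WT mice. For CD28KO against WT in tTreg, in place of 0, it was 1 without the filter, 2 with the replicate block (Klrg1, adjusted p = 0.0436, and Klrb1c, adjusted p = 0.0239), 2 without the 3 libraries that stood apart and 1 without both CD28KO replicates 3. For that genotype comparison in Tconv it was 1 after quantile normalization and 1 without the 3 libraries. After quantile normalization tTreg against Tconv in CD28KO mice had 4 in place of 2. For the CD28 effects compared with Tconv, in place of 0, quantile normalization gave 1 in tTreg and 1 in pTreg, leaving out the 3 libraries 2 and 2, and leaving out both CD28KO replicates 3 gave 1 in pTreg. Smaller changes were also found. For tTreg against Tconv in CD28KO mice it was 3 in place of 2 with a pseudocount of 0.1 and without the 3 libraries, and in WT mice 2 in place of 3 without both CD28KO replicates 3. For pTreg against Tconv in CD28KO mice it was 2 in place of 3 without the filter, without the 3 libraries and without both CD28KO replicates 3, and in WT mice 5 in place of 4 without the filter. Leaving out 1 library gave 2 for tTreg against Tconv and 2 to 3 for tTreg against pTreg in WT mice, 2 to 3 and 3 to 4 for pTreg against Tconv in CD28KO and WT mice, and 0 to 1 for CD28KO against WT in pTreg and for the CD28 effect in pTreg minus that in Tconv. By the rule used, the replicate numbers did not pair the tTreg genotypes, while 17 of 18 libraries correlated best with one of their own number, a hint from the data. The block changed no other call of a member.

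None of the differences that changed sign was a call. For Klrd1, CD28KO against WT in pTreg was -0.32 with a pseudocount of 0.1 and -0.0078 without the 3 libraries, and -0.18 to 0.28 leaving out 1 library. Klrd1 in CD28KO tTreg against CD28KO pTreg was -0.018 and its CD28 effect in tTreg minus Tconv -0.18 without both CD28KO replicates 3. Klrb1f, for the CD28 effect in pTreg minus that in tTreg, was -0.027 after quantile normalization, -0.33 with a pseudocount of 0.1 and -0.23 without the 3 libraries (-0.23 to 0.29 leaving out 1). Klrb1c, for that in pTreg minus Tconv, was -0.42 with a pseudocount of 0.1 (-0.022 to 0.29 leaving out 1). Klrg1 in CD28KO pTreg against CD28KO Tconv was 0.18 in both sets of left-out libraries. Leaving out 1 library, it ran from -0.86 to 0.18, Klrg1 between genotypes in Tconv from -0.66 to 0.38, Klrd1 there from -0.16 to 0.51, Klrd1 in CD28KO tTreg against pTreg from -0.018 to 0.89, the Klrd1 effect in pTreg minus Tconv from -0.50 to 0.17, and Klrb1c in WT tTreg against Tconv from -0.12 to 0.062. The causes of these changes were not tested.

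Over all genes, the count called for CD28KO against WT was 25 in tTreg (3 to 130 over the alternatives), 25 in pTreg (6 to 120) and 97 in Tconv (44 to 311). For tTreg against pTreg it was 500 in CD28KO (322 to 1853) and 605 in WT mice (348 to 1224). For tTreg against Tconv it was 1484 in CD28KO (1125 to 2820) and 1545 in WT mice (1140 to 3069), and for pTreg against Tconv 718 (391 to 2082) and 551 (365 to 1268). The tests of CD28 effects called 3 genes for pTreg minus tTreg (1 to 7), 15 for tTreg minus Tconv (3 to 70) and 9 for pTreg minus Tconv (2 to 29).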
